A study of Mus musculus with 4 samples.

Results

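Myh6, Myh7, Myh7b, Acta1, Nppa, Nppb, Ankrd1 and Xirp2, 8 genes of the cardiac myosin switch and the fetal stress response, were followed across the sections of mouse hearts with immune checkpoint inhibitor myocarditis. They were taken by symbol from the 19465 genes of a Visium spatial transcriptome, in which a capture array under a tissue section records transcripts spot by spot. A total of 7 of the 8 have a row, and Xirp2, which encodes an actin-binding protein of the intercalated disc, was not analysed here. All 4 sections, cut at 5 µm from formalin-fixed, paraffin-embedded hearts, came from wild type FVB/NJ mice immunized with a peptide of the α-myosin heavy chain (MyHCα) and given 2 checkpoint inhibitors, anti-PD-1 and anti-CTLA-4. An IL-17A neutralizing antibody was added in 2 of them (the antibody sections), while the other 2 received both inhibitors alone (the ICI-alone sections). No untreated or unimmunized section was analysed here, age, dose and day are not given in the labels, and whether the sections of a group are from different mice is not stated, which leaves the p-values resting on section-to-section spread alone. The labels give a batch number, 1 or 2, that pairs an antibody section with an ICI-alone section.

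The adult mouse ventricle is built on α-myosin heavy chain, the fast motor encoded by Myh6, whereas the slower β-myosin heavy chain encoded by Myh7 is the main form of the fetal ventricle and returns when the adult heart is loaded or injured. The same response re-expresses Nppa (atrial natriuretic peptide), Nppb (B-type natriuretic peptide) and Acta1 (skeletal α-actin), and raises Ankrd1, a titin-bound stretch and stress sensor that also acts in the nucleus. Nppa is made throughout life in the atria, so its reading in a whole heart depends on how much atrium a section holds. Myh7b is a further sarcomeric myosin gene.

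Myh6 (ENSMUSG00000040752, chr14:54941921-54968017, minus strand) and Myh7 (ENSMUSG00000053093, chr14:54970684-54994626, minus strand) are neighbours, 2666 bases apart in GRCm38.p6, the assembly called mm10. Nppb (ENSMUSG00000029019, chr4:147985786-147987205, plus strand) and Nppa (ENSMUSG00000041616, chr4:148000722-148002074, plus strand) lie 13516 bases apart with no annotated gene between them. Myh7b (ENSMUSG00000074652) lies at chr2:155611243-155634307 on the plus strand. Acta1 (ENSMUSG00000031972) at chr8:123891758-123894775 and Ankrd1 (ENSMUSG00000024803) at chr19:36111965-36119844 lie on the minus strand. The lncRNA genes Mhrt and Gm31251 overlap Myh7 and are not among the measured genes.

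The promoters of the 3 members called with the antibody (Myh7, Nppa and Myh7b) and of Myh6, Ankrd1 and Acta1, which the position results turn on, are shown to let their start regions be compared. Each runs 5′ to 3′ over 300 bases, 250 before and 50 after an annotated start, from RefSeq on GRCm38.p6. Capitals mark the M-CAT motif (CATTCC, the site read by TEAD factors; GGAATG on the other strand), the GATA motif (GATAA, or TTATC on the other strand) and the CArG box read by serum response factor. The Myh6 window is set at an annotated start inside the RefSeq gene, the other windows shown at the gene's outermost start. The Nppb window, counted below but not shown, is also set at a start inside its gene.
Myh7 (chr14:54994577-54994876, minus strand): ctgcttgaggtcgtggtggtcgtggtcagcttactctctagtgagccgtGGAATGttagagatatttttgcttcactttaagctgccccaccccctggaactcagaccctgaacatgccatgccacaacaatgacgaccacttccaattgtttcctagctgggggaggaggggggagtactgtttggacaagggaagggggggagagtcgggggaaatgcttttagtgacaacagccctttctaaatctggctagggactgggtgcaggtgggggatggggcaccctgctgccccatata
Myh6 (chr14:54966558-54966857, minus strand): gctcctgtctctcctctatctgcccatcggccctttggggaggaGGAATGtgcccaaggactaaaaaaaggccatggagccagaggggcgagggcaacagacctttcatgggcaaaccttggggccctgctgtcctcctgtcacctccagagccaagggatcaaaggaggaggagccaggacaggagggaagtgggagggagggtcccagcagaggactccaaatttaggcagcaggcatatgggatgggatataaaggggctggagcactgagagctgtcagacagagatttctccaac
Nppa (chr4:148000472-148000771, plus strand): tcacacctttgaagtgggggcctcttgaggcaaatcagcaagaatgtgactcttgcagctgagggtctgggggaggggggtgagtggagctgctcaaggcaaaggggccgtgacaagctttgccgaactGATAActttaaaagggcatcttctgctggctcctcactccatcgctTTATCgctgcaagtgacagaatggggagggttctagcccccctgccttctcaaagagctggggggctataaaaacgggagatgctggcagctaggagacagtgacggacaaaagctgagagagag
Myh7b (chr2:155610993-155611292, plus strand): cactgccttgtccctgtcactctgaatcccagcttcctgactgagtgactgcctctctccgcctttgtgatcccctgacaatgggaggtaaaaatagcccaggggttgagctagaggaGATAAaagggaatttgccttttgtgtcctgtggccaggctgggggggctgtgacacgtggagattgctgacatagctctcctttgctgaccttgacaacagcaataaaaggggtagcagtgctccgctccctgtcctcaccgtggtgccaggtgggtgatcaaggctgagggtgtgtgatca
Ankrd1 (chr19:36119795-36120094, minus strand): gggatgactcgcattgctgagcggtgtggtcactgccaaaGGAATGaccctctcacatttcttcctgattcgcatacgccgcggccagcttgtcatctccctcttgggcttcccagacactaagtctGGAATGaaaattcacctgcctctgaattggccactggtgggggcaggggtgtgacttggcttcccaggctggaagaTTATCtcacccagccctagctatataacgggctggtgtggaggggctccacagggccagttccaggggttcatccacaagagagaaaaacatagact
Acta1 (chr8:123894726-123895025, minus strand): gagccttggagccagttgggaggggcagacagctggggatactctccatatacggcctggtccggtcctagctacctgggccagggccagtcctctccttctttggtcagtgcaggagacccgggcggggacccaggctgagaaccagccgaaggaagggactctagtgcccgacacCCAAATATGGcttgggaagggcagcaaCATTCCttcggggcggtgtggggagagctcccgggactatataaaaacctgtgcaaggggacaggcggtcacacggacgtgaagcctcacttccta
M-CAT stood in the windows of Myh7, Myh6, Ankrd1, Acta1 and Nppb, against 14.7% of 32841 RefSeq promoter windows of that length. GATAA stood in those of Nppa, Myh7b, Ankrd1 and Nppb, against 25.4%. The CArG box stood in that of Acta1, against 1.63%. No window held a MEF2 box, against 3.19%. Myh7 and Nppa, the members that were lower with the antibody, shared none of these motifs; both held the short E-box CANNTG, left in lower case, as did 72.3% of all windows. A match describes letters and not a factor's binding.

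Each of the 3 myosin genes also holds a microRNA gene, shown because the host transcripts are the ones compared below; the microRNAs themselves were not measured. Capitals mark the seed, bases 2 to 8 of the mature RefSeq sequence.
miR-208a-3p, in Myh6: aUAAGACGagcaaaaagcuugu
miR-208b-3p, in Myh7: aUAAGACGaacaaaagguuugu
miR-499-5p, in Myh7b: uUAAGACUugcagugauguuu
The microRNAs inside Myh6 and Myh7 share their seed, and that inside Myh7b differs from it in its last base.

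The antibody sections held 47882576 and 33005923 unique molecular identifiers (UMIs, each a counted probe molecule) in 2604 and 2585 spots, and the ICI-alone sections 73167202 and 66255242 in 2503 and 3052. All 14 measured cardiomyocyte reference genes (troponins, titin, light chains and calcium handling) were present in each section. They summed to 76434 and 65572 CPM (counts scaled to a common library total) in the antibody sections, against 56010 and 37143 CPM in the ICI-alone sections. Summed fibroblast markers stood at 2672 and 2931 CPM in the antibody sections, against 9319 and 21577 CPM in the ICI-alone sections. The 20-gene leukocyte panel stood at 1849 and 2234 CPM, against 3197 and 4161 CPM. Only antibody replicate 2 held atrium: 164 spots with at least 1% of UMIs on 5 atrial genes, which are left out below unless stated. In the remaining spots the 5 atrial genes summed to 5.66 and 39.2 CPM in the antibody sections, against 4.41 and 6.08 CPM in the ICI-alone sections. The part of these differences in the results below was not tested.

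Adding the IL-17A antibody went with less Myh7 and Nppa and more Myh7b, while Myh6, Acta1, Ankrd1 and Nppb did not pass the test. UMIs were summed per section over spots outside the atrium, scaled as TMM CPM and tested across 18798 genes with edgeR's quasi-likelihood test, a gene being called at a Benjamini-Hochberg adjusted p under 0.05. Of the 7 members, 2 fell and 1 rose, against 8.38% of all genes lower, 2.81% higher and 11.2% called in all. In summed sections, fewer cells of a type and less RNA per cell cannot be told apart. With 2 sections per group an exact permutation test cannot go below a two-sided p of 0.333.

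Myh7 stood at 230 and 414 TMM CPM in the antibody sections, against 997 and 1713 in the ICI-alone sections. The groups did not overlap, and within either batch number the antibody section was lower. The log2 fold change was -2.07 ± 0.40 (SE; adjusted p = 0.0273, edgeR; means 322 ± 130 and 1355 ± 506, SD, n = 2 each). Nppa moved further, with 411 and 744 TMM CPM in the antibody sections against 3341 and 5301 in the ICI-alone sections (log2 fold change -2.90 ± 0.45, adjusted p = 0.0219, edgeR). Each of these genes was called in 14 of 17 alternatives. Both calls were lost when either antibody section was left out. Myh7 also lost its call under a minimum of 10 CPM, where Nppa kept it. Where a section is left out of a comparison between treatments, its group keeps 1 section, which is assumed to vary like the other group, so such p-values rest on the spread of that other group. Without antibody replicate 1 the adjusted p was 0.138 for Myh7 and 0.13 for Nppa in edgeR, and without antibody replicate 2 it was 0.0524 and 0.0628, with the direction kept. With the batch number as a replicate block 3471 genes were called (18.5%; 7.02% higher, 11.4% lower), and the same 3 members passed, Myh7 at -2.08 (adjusted p = 0.012), Nppa at -2.93 (adjusted p = 0.0113) and Myh7b at 1.60 (adjusted p = 0.0112).

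Nppa could be read only with the atrium set aside. In the 164 atrial spots of antibody replicate 2 it reached 72506 CPM, against 788 CPM in the other spots of that section, both scaled by library size. Of 192896 Nppa UMIs in that section, 24167 lay outside the atrium. With the atrial spots kept, its log2 fold change shrank to -0.56 and the call was lost (adjusted p = 0.687, edgeR). Myh7 was almost missing from the atrial spots, with 13 UMIs (5.59 CPM, against 438 CPM outside).

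Myh7b, the third myosin, ran the opposite way to Myh7. It stood at 64.4 and 41.05 TMM CPM in the antibody sections, against 25.4 and 11.3 in the ICI-alone sections, without overlap (log2 fold change 1.52 ± 0.38, adjusted p = 0.0458, edgeR). That call was close to the threshold and was kept in 12 of 17 alternatives. Among those that lost it were the scale of the cardiomyocyte reference genes (1.05, adjusted p = 0.189, edgeR) and the fit without antibody replicate 1 (1.16). A minimum of 10 CPM and keeping the atrial spots lost it too. Myh6 stood at 22223 and 16502 TMM CPM in the antibody sections, against 9954 and 4639 in the ICI-alone sections. Its groups did not overlap either, but its log2 fold change of 1.41 ± 0.57 did not pass (adjusted p = 0.128, edgeR). Myh6 passed in 4 of 17 alternatives. Among them were the fit without ICI-alone replicate 1, on the spread of the antibody sections alone (2.00), and DESeq2 (adjusted p = 0.000332). Another was the scale of the reference genes (0.94, adjusted p = 0.00581, edgeR). On that scale 6.41% of all genes were called, 0.0585% higher and 6.35% lower.

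Acta1 and Ankrd1 overlapped between the groups as TMM CPM. Acta1 stood at 1039 and 1275 TMM CPM in the antibody sections, against 2453 and 809 in the ICI-alone sections. The antibody sections lay between the ICI-alone sections (log2 fold change -0.50 ± 0.49, adjusted p = 0.484, edgeR), and its value followed which ICI-alone section was kept: -1.08 (adjusted p = 0.0137) without replicate 2 and 0.46 without replicate 1, each on the spread of the antibody sections alone. Relative to the cardiomyocyte reference genes its groups separated, at 13.6 and 20.6 per 1000 reference UMIs in the antibody sections against 40.1 and 22.4 in the ICI-alone sections, without a call (-0.87, adjusted p = 0.105). Ankrd1 stood at 4541 and 8916 TMM CPM in the antibody sections, against 12869 and 6429 in the ICI-alone sections, with no call (-0.52 ± 0.55, adjusted p = 0.508). On the reference scale its groups separated too, at 59.6 and 144 per 1000 reference UMIs in the antibody sections against 210 and 178 in the ICI-alone sections, and it was called (-0.93, adjusted p = 0.0111). Nppb was almost undetected, with 16 and 15 UMIs in the antibody sections and 41 and 39 in the ICI-alone sections, where 3 UMIs correspond to between 0.0410 and 0.0978 CPM. Its levels were 0.333 and 0.462 TMM CPM, against 0.612 and 0.572 (log2 fold change -0.60 ± 0.31, adjusted p = 0.210). The groups did not overlap and the main test did not call it; limma on the mean over spots of log2(CPM + 1) did, at -0.04 (adjusted p = 0.0436).

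**Figure D1:**
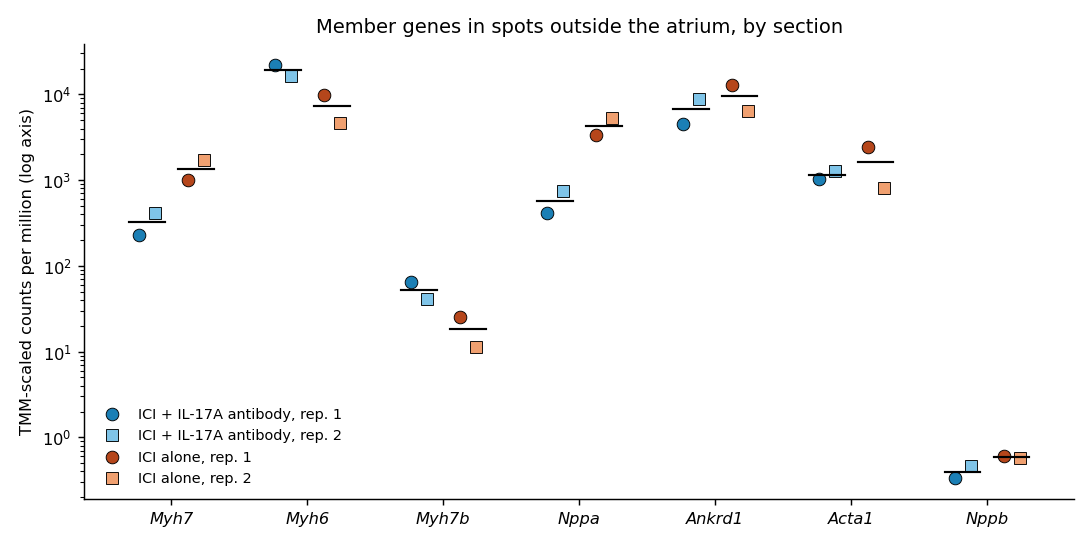
Levels of the 7 measured members in spots outside the atrium, as TMM-scaled CPM on a log axis; each point is a section and each bar the mean of its 2 sections. For Myh7 and Nppa both antibody sections lie below both ICI-alone sections, for Myh7b and Myh6 above them, and for Ankrd1 and Acta1 the groups overlap; heights are not comparable between genes, since probes differ.

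The exchange between the 2 cardiac myosins was also read as the share of Myh7 in the UMIs of Myh6 and Myh7 together, a ratio that does not depend on library size. Myh7 and Myh6 are close paralogs and the probes are not given in the sources used here, so cross-detection cannot be measured and only differences between places are read. The share was 1.03% (95% Wilson interval 1.01 to 1.05) and 2.45% (2.40 to 2.49) in the antibody sections, against 9.11% (9.04 to 9.17) and 27.0% (26.8 to 27.1) in the ICI-alone sections. The intervals cover counting error only. The groups did not overlap and differed by -16.3 percentage points, larger than the SD within either group (1.00 and 12.6, n = 2 each), at an exact two-sided p of 0.333, the smallest possible. Among spots with at least 10 UMIs of both genes together, 5.51% and 9.82% of spots in the antibody sections had over 10% Myh7, against 42.0% and 79.4% in the ICI-alone sections. Spots with over 50% Myh7 made up 0.535% and 0.251%, against 1.31% and 21.4%.

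To place the members relative to infiltrate, spots thinned to 5000 UMIs were called leukocyte-rich where the leukocyte panel reached 30 UMIs, border where they lay 1 or 2 grid steps from such a spot, and remote at 4 or more steps. Leukocyte-rich spots numbered 170 and 74 in the antibody sections and 268 and 559 in the ICI-alone sections. Remote spots numbered 1774 and 1688, and 1293 and 1065. The classes therefore take different shares of the tissue in each section, from 71.0% remote in antibody replicate 1 to 34.9% in ICI-alone replicate 2.

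**Figure D2:**
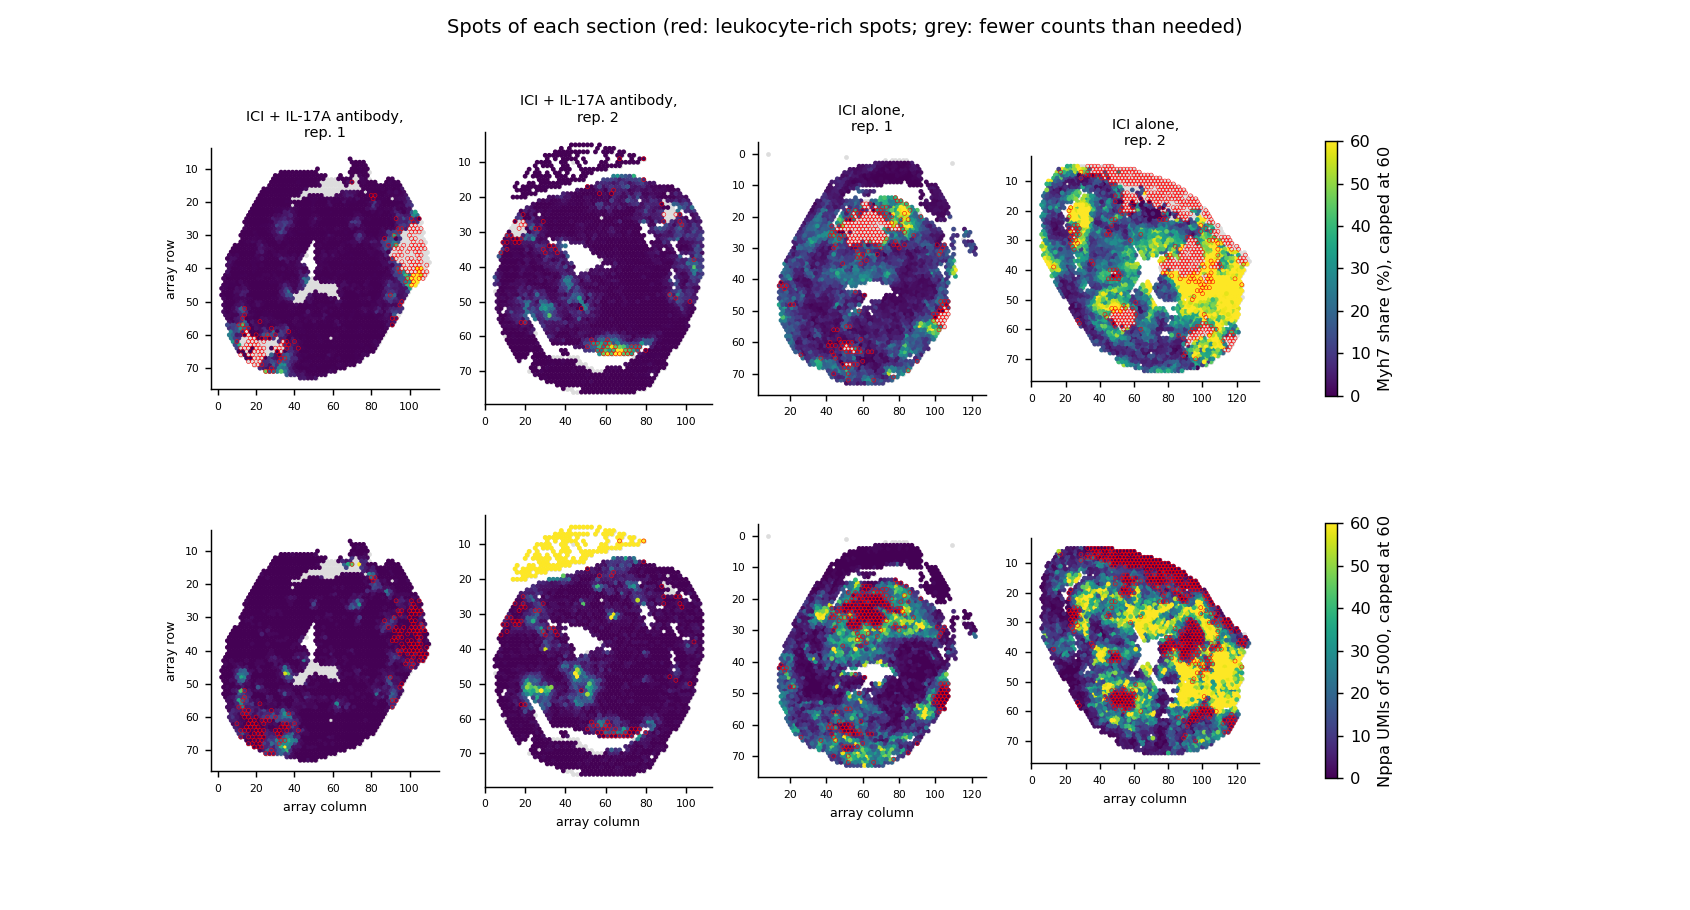
Maps of the spots of each section by array row and column; colour gives the Myh7 share of Myh6 plus Myh7 UMIs (upper row) or Nppa UMIs of 5000 (lower row), both capped at 60, and red rings mark leukocyte-rich spots. High Myh7 shares lie at a few foci in the antibody sections, whose whole-section shares are 1.03% and 2.45%, and across much of ICI-alone replicate 2, whose share is 27.0%; the yellow group at the top of antibody replicate 2 is the atrium.

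In remote spots, Myh7 and Nppa were also lower in both antibody sections, but the main test called no gene there. These spots were not equally free of leukocyte transcripts. The leukocyte panel stood at 769 and 1489 CPM in those of the antibody sections, against 1507 and 2051 CPM in those of the ICI-alone sections. The distances differed too, with 1301 and 737 remote spots 8 or more steps out in the antibody sections, against 436 and 157 in the ICI-alone sections. The part of these differences in the values below was not tested. Scaled by library size, Myh7 stood at 174 and 368 CPM in the remote spots of the antibody sections, against 1345 and 3347 CPM in those of the ICI-alone sections. Nppa stood at 160 and 629 CPM, against 1695 and 5236 CPM. At 8 or more steps alone, Nppa stood at 126 and 348 CPM, against 706 and 1384 CPM. Myh7 stood there at 176 and 238 CPM, against 1053 and 2520 CPM. The groups did not overlap for either gene. The log2 fold changes were -3.10 ± 0.55 for Myh7 and -3.13 ± 0.79 for Nppa, both with an adjusted p of 0.271 in edgeR, and 0 of 14712 genes were called (0.0%; 2361 at an unadjusted p under 0.05). DESeq2 called 469 genes (3.19%; 0.836% higher, 2.35% lower), Myh7 among them (-3.10, adjusted p = 2.32e-10). With the batch number as a replicate block 1087 genes were called (7.39%), among them Myh7 (-3.06, adjusted p = 0.00183), Nppa (-3.22, adjusted p = 0.00183), Myh7b (1.06, adjusted p = 0.0147) and Myh6 (0.89, adjusted p = 0.0327). That block called 2.32% of all genes higher and 5.06% lower. Relative to the reference genes 2.37% were called, 0.163% higher and 2.21% lower, with Myh6 higher (0.67) and Myh7 (-3.32), Nppa (-3.32) and Ankrd1 (-1.11) lower. Leaving out either ICI-alone section also brought calls for Myh7 and Nppa, but these rest on the spread of the antibody sections alone. The share of Myh7 in remote spots was 0.612% and 1.69% in the antibody sections, against 7.69% and 23.1% in the ICI-alone sections.

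Next to the infiltrate, the adult myosin Myh6 and Myh7b were lower and Nppa was higher than in remote myocardium. Between border and remote spots, tested over the 4 sections with the section as a block, 3 of 7 members were called where 56.7% of all 14447 genes were (29.3% higher, 27.4% lower), so the count itself is not particular to them. Myh6 fell in every section, to 7719 and 7762 TMM CPM in the border of the antibody sections against 32643 and 22344 in their remote spots, and to 3526 and 2129 in the border of the ICI-alone sections against 18333 and 11478 in their remote spots (log2 fold change -2.11 ± 0.22, adjusted p = 0.000931, edgeR). Myh7b fell likewise (-2.45 ± 0.20, adjusted p = 0.000604). Nppa rose in every section (1.16 ± 0.38, adjusted p = 0.0398), most in antibody replicate 1, with 1090 TMM CPM in the border against 185 in remote spots, and least in ICI-alone replicate 2, with 6433 against 5406. Its call was lost in 4 of 14 alternatives: without antibody replicate 2 (1.37, adjusted p = 0.0702) and without ICI-alone replicate 1 (1.10, adjusted p = 0.123), with the T cell panel in place of the leukocyte panel (1.27, adjusted p = 0.0559), and with leukocyte-rich spots set at the top 5%, where little of the rise was left (0.305, adjusted p = 0.402). Myh7 (-0.43 ± 0.47), Acta1 (-0.19 ± 0.24), Ankrd1 (0.07 ± 0.33) and Nppb (0.27 ± 0.35) did not pass, with adjusted p-values between 0.462 and 0.871 in edgeR.

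Muscle transcripts were lower toward the infiltrate: all 14 cardiomyocyte reference genes were called lower in border than in remote spots, with a median log2 fold change of -1.42 beside 0.05 over all genes. The members were therefore also read relative to the summed reference genes, which scales each spot class by its muscle transcripts; these genes may themselves change. On that scale 90.5% of all genes were called and 89.2% were higher, so a rise says little, whereas 1.36% were lower. Myh6 (-0.75) and Myh7b (-1.09) were among the lower genes. Nppa (2.49), Acta1 (1.16, the opposite sign), Ankrd1 (1.41) and Nppb (1.60) were called higher, and Myh7 was not called (0.91).

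Beside 27.4% of all genes lower and 29.3% higher in the border against all counts, most lists around the members were lower there. In all, 12 of 12 adult sarcomere genes (median -1.39), 19 of 22 transcription factors (median -0.80), 7 of 9 natriuretic peptide processing and receptor genes (median -1.03) and 13 of 20 Z-disc partners (median -0.80) were lower than in remote spots. Most of the adult sarcomere genes are also reference genes, so that list is not a separate observation. Of 18 other fetal and hypertrophy genes tested, 7 were higher and 5 lower (median 0.27).

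Relative to the reference genes, Nppa stood at 32.1 and 26.7 per 1000 reference UMIs in the border of the antibody sections, against 1.70 and 8.23 in their remote spots. In the ICI-alone sections it stood at 124 and 239 in the border, against 20.8 and 78.6 in remote spots. Ankrd1 stood at 228 and 306 in the border of the antibody sections, against 36.2 and 105 in their remote spots, and at 319 and 205 in the border of the ICI-alone sections, against 150 and 155 in theirs. Per unit of muscle transcript, both genes were thus higher in the border in 4 of 4 sections, as was Acta1. On this scale 89.2% of all 14447 genes were called higher in the border, so the rise is not particular to these members. The remote spots of ICI-alone replicate 2 (78.6) had more Nppa per reference UMI than the leukocyte-rich spots of either antibody section (69.4 and 59.4).

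Inside leukocyte-rich spots the muscle genes were lowest. Of the 6 members tested there, Myh6 (-4.43 ± 0.60), Myh7b (-4.80 ± 0.27) and Acta1 (-1.80 ± 0.32) fell against remote spots, where 63.2% of all 14127 genes were called, 32.5% higher and 30.7% lower. The adjusted p-values in edgeR were 0.000865, 0.000189 and 0.00292. Myh7 (-1.79 ± 0.96, adjusted p = 0.143), Ankrd1 (-1.18 ± 0.55, adjusted p = 0.102) and Nppa (0.19 ± 0.54, adjusted p = 0.774) did not pass, and Nppb had too few UMIs to be tested. The 14 reference genes were all lower, with a median of -3.28. Relative to them, Acta1 (1.36), Ankrd1 (1.96), Myh7 (1.35) and Nppa (3.28) were higher and Myh6 (-1.23) and Myh7b (-1.52) lower, on a scale where 94.9% of genes were higher and 0.184% lower.

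**Figure D3:**
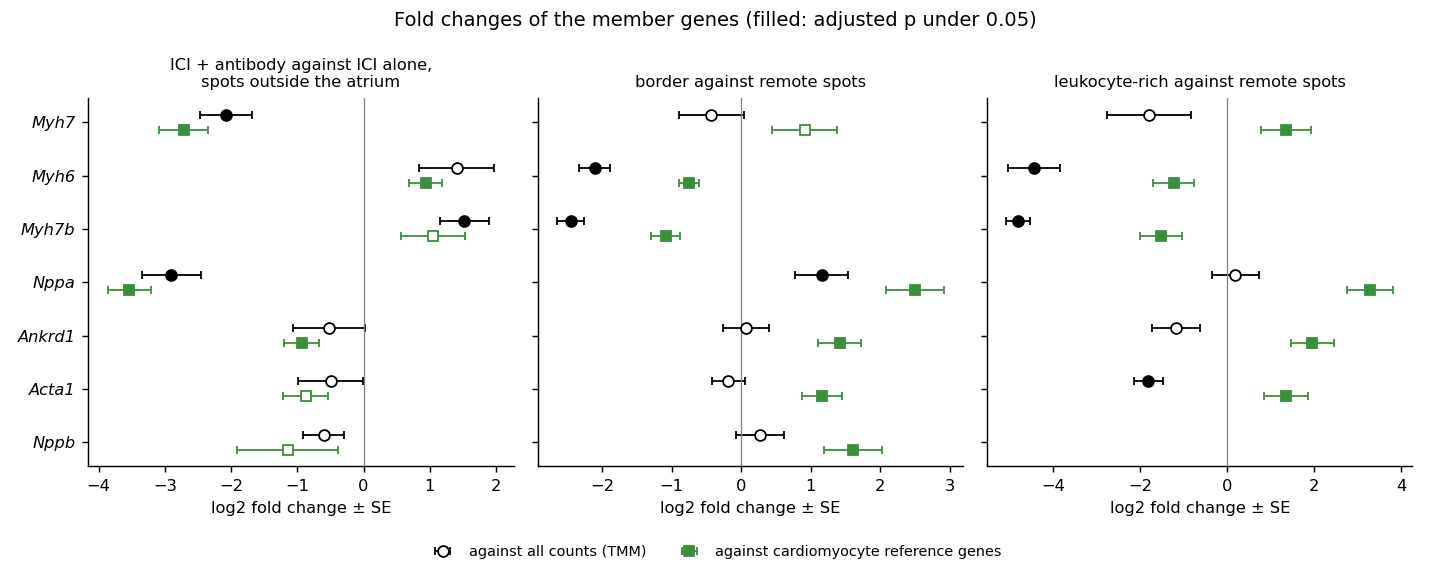
Log2 fold changes with standard errors for the 7 measured members in 3 comparisons, against all counts (circles) and against the cardiomyocyte reference genes (squares); filled symbols have an adjusted p under 0.05. Myh6 and Myh7b lie left of 0 on both scales in both position comparisons, whereas Acta1 in leukocyte-rich spots turns from -1.80 to 1.36 when read against the reference genes.

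The share of Myh7 rose toward the infiltrate in all 4 sections. In leukocyte-rich spots it was 13.99% and 15.4% in the antibody sections, against 0.612% and 1.69% in their remote spots, and 15.7% and 39.4% in the ICI-alone sections, against 7.69% and 23.1% in theirs. Border spots lay between, at 4.75% and 5.94% in the antibody sections and 14.4% and 34.7% in the ICI-alone sections. The border was higher than remote spots by 6.67 percentage points on average, in 4 of 4 sections, at an exact paired two-sided permutation p of 0.125, the smallest that 4 sections allow. In leukocyte-rich spots the shares of both antibody sections lay close to that of ICI-alone replicate 1, and ICI-alone replicate 2 stood apart.

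From remote to border spots, the level of Myh7 ran in opposite directions in the 2 groups, although the test of that difference did not pass. In the antibody sections it was higher in the border, at 385 and 491 TMM CPM against 201 and 384 in remote spots. In the ICI-alone sections it was lower in the border, at 595 and 1130 TMM CPM against 1526 and 3456 in remote spots. Per 1000 reference UMIs that fall was small, at 15.5 and 42.0 in the border against 16.5 and 50.2 in remote spots. On the same scale the antibody sections rose, to 11.3 and 13.3 in the border from 1.85 and 4.82 in remote spots. The test of the difference between the groups gave 2.07 ± 0.29 on the log2 scale (unadjusted p = 0.000291 by edgeR) but did not pass over all 17112 genes (adjusted p = 0.482; 0 genes called, 0.0%, 1719 at an unadjusted p under 0.05, and 39 by DESeq2, with Myh7 at adjusted p = 1.16e-08). For leukocyte-rich against remote spots the same difference was 3.94 ± 0.54 (unadjusted p = 0.000131, adjusted p = 0.158 in edgeR). In that test 3 of 16910 genes were called (0.0177%) and no member was. There the antibody sections did not run 1 way, at 193 TMM CPM against 209 in remote spots of replicate 1 and 564 against 399 in replicate 2. The ICI-alone sections were both lower, at 164 and 175 against 1577 and 3576. DESeq2 called Myh7 there too (3.90, adjusted p = 9.04e-12). Leaving out antibody replicate 1 (4.26, adjusted p = 0.000168) or antibody replicate 2 (3.58, adjusted p = 0.000735) gave a call in edgeR, each with 1 antibody section left and on the spread of the ICI-alone sections alone.

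Step by step from the leukocyte-rich spots, the members followed 3 courses. Counted as CPM by library size, Myh6 and Myh7b climbed outward. Myh6 had 1409 CPM at step 0, 22330 CPM at step 3 and 28967 CPM at 8 or more steps in antibody replicate 1, and 296, 6345 and 15145 CPM in ICI-alone replicate 2. Nppa and Ankrd1 formed a rim. Nppa peaked at 1 step in antibody replicate 1 (1232 CPM) and at 2 steps in both ICI-alone sections (5084 and 8334 CPM), and in antibody replicate 2 it was highest at step 0 (1242 CPM). Ankrd1 peaked at 2 steps in the antibody sections (9856 and 13404 CPM), at 3 in ICI-alone replicate 1 (16128 CPM) and at 5 in ICI-alone replicate 2 (10815 CPM). By 8 or more steps Nppa had dropped to 126 and 348 CPM in the antibody sections and 706 and 1384 CPM in the ICI-alone sections. Myh7 peaked at 2 steps in antibody replicate 1 (480 CPM) and at step 0 in antibody replicate 2 (653 CPM), but 5 steps out in both ICI-alone sections (1627 and 3849 CPM). In the ICI-alone hearts the Myh7 maximum thus lay outside the Nppa maximum.

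**Figure D4:**
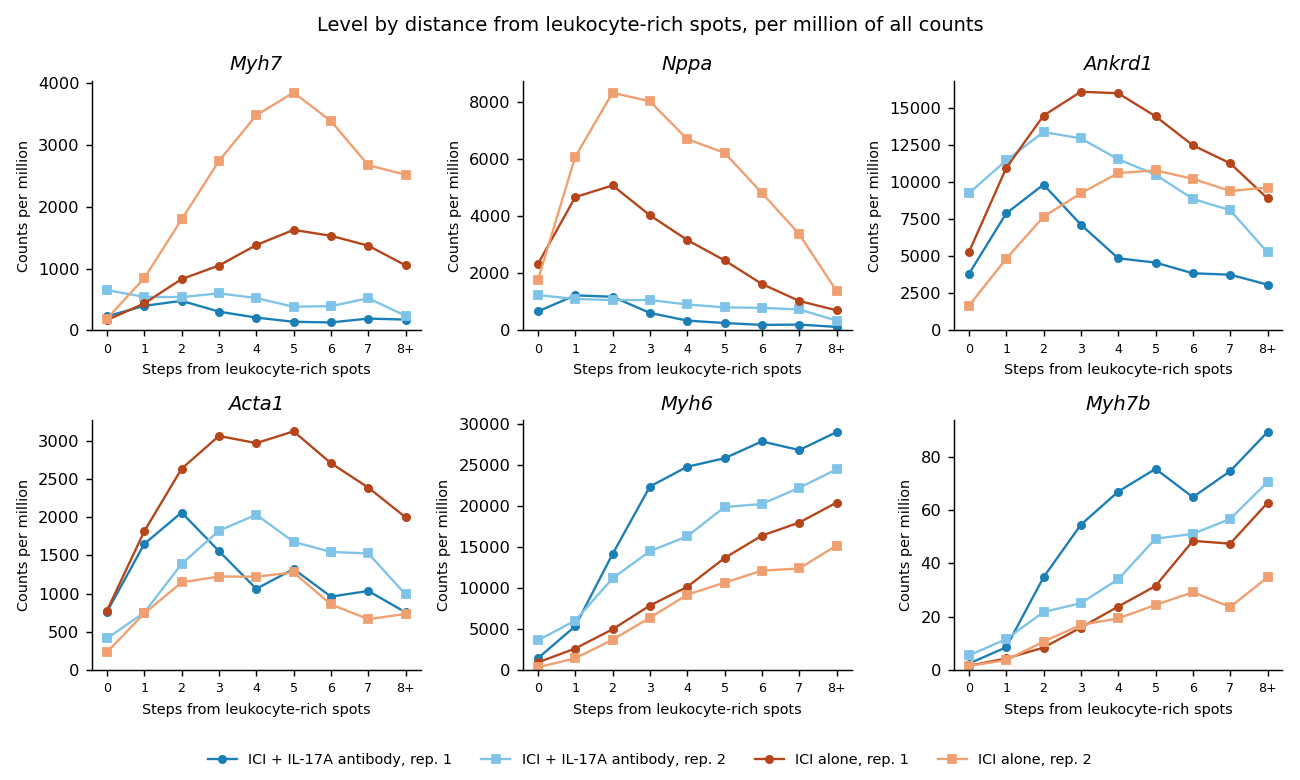
CPM (by library size) of 6 members by steps on the spot grid from the nearest leukocyte-rich spot, with a line for each section; step 0 is the leukocyte-rich spots, and 8+ pools all farther spots. Myh6 and Myh7b climb outward in each section, Nppa peaks at 2 steps in both ICI-alone sections, and Myh7 peaks at 5 steps in both of them.

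The reference genes themselves were scarcest at step 0, which raises any gene read against them there. They stood at 9631 CPM at step 0 and 95688 CPM at 8 or more steps in antibody replicate 1. In ICI-alone replicate 2 they stood at 5938 and 74575 CPM. Per 1000 reference UMIs, Nppa was highest at step 0 in all 4 sections. It ran through 69.4, 46.7, 20.8 and 7.71 at steps 0 to 3 and ended at 1.32 in antibody replicate 1, and through 298, 274, 211 and 152 and ended at 18.6 in ICI-alone replicate 2. Ankrd1 fell outward in each section too, to 32.4 and 64.0 at 8 or more steps in the antibody sections, where step 0 had 396 and 443, and to 99.2 and 129 in the ICI-alone sections, where step 0 had 435 and 281. By library size Ankrd1 stood at 3814 and 9265 CPM at step 0 in the antibody sections, and at 3097 and 5276 CPM at 8 or more steps. In the ICI-alone sections it was higher far out, at 5279 and 1669 CPM at step 0 and 8921 and 9652 CPM at 8 or more steps. Myh7 kept its 2 courses per 1000 reference UMIs. In the antibody sections it was highest at step 0 (23.8 and 31.2) and ended at 1.84 and 2.88, and in the ICI-alone sections it was highest at 5 steps (21.3 and 58.2), above step 0 (13.8 and 32.4). Acta1 was highest at step 0 in both ICI-alone sections (63.9 and 39.1) and in antibody replicate 1 (78.9, with 7.88 at 8 or more steps), but in antibody replicate 2 it was highest at 4 steps (30.5).

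**Figure D5:**
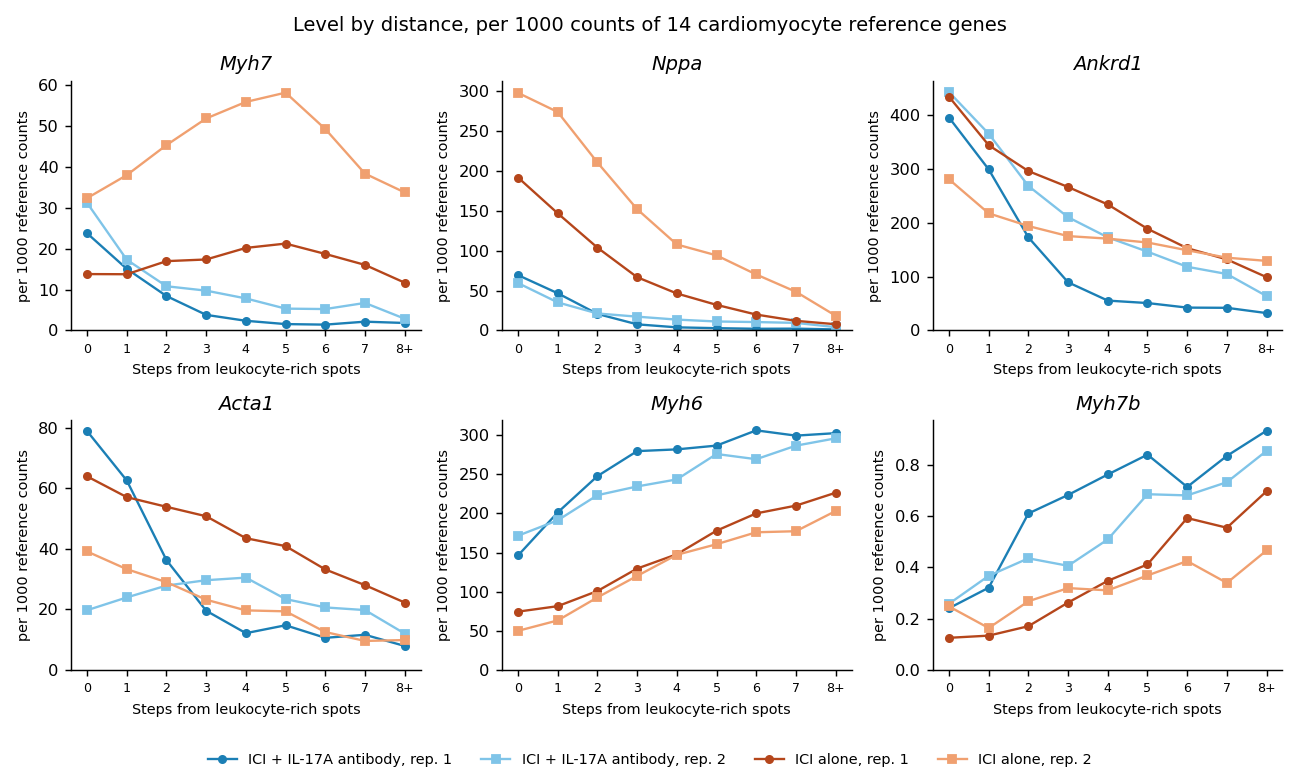
The same distance profile per 1000 UMIs of 14 cardiomyocyte reference genes, with a line for each section. From step 0 to 8+ Nppa and Ankrd1 fall in all 4 sections and Myh6 climbs, while Myh7 falls outward in the antibody sections and peaks at 5 steps in the ICI-alone sections (21.3 and 58.2). The reference genes are themselves scarcest at step 0, with 9631 CPM against 95688 CPM at 8+ in antibody replicate 1.

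By distance from the tissue outline no member passed the main test. Spots with fewer than 6 neighbours under tissue (edge) were set against spots 4 or more steps inside, and 27 of 13065 genes were called (0.207%; 0.199% higher, 0.00765% lower), none of them among the 6 members tested. Of 5 tested mesothelial markers, which mark the outer heart surface, 3 were called higher at the edge. Myh7 was higher at the edge in 4 of 4 sections, at 334 and 577 TMM CPM against 234 and 342 inside in the antibody sections and at 1078 and 2147 against 761 and 1373 in the ICI-alone sections. Its log2 fold change of 0.60 ± 0.10 did not pass (adjusted p = 0.0981, edgeR). Nppa was lower at the edge in 4 of 4 sections (-0.63 ± 0.13, adjusted p = 0.137). DESeq2, which called 270 genes (2.07%; 1.72% higher, 0.344% lower), called both, with Myh7 at adjusted p = 1.09e-06 and Nppa at 2.16e-05.

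Within sections the members kept company in part. Over spots outside the atrium thinned to 5000 UMIs, Myh6 and Myh7 were inversely related in the antibody sections (Spearman rho -0.16 and -0.42 over 2499 and 2385 spots) and directly related in the ICI-alone sections (0.40 and 0.69 over 2492 and 3048 spots). Against the summed reference genes Myh7 changed sign likewise, at -0.18 and -0.38 in the antibody sections and 0.44 and 0.75 in the ICI-alone sections. The change is thus not particular to Myh6, which itself ran with the reference genes (0.70 and 0.79, and 0.93 and 0.93). Spots of a section share its library, and these values are descriptions. Acta1 and Ankrd1 ran together in each section (0.54 and 0.33 in the antibody sections, 0.59 and 0.40 in the ICI-alone sections), as did Nppa and Ankrd1 (0.37 and 0.48 in the antibody sections, 0.46 and 0.39 in the ICI-alone sections). Among 3924 genes with at least 50 CPM, the closest in pattern to Myh7 by mean rho over the 4 sections were Ankrd1 (0.46), Mgp (0.34) and Hspb7 (0.33). Those closest to Nppa were Clu (0.45), Ankrd1 (0.42) and Ccn2 (0.42), to Myh6 were Myl2 (0.83), Slc25a4 (0.79) and Pln (0.79), and to Ankrd1 were Serpina3n (0.54), Rcan1 (0.48) and Ankrd23 (0.47). Acta1 was nearest to Ankrd1 (0.47), Fhl1 (0.42) and Cryab (0.39), and Myh7b to Myh6 (0.28), Fabp3 (0.27) and Myl2 (0.26). Nppb had no gene above 0.041.

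The spots richest in Myh7 lay nearer to infiltrate than spots at large in the antibody sections and farther from it in the ICI-alone sections. Among the top 10% of spots by Myh7 UMIs, 41.2% and 34.9% lay within 2 steps of leukocyte-rich spots in the antibody sections, where 23.5% and 19.4% of all spots did. In the ICI-alone sections 10.8% and 21.0% did, against 37.8% and 51.8% of all spots. This split was not particular to Myh7. Among the top 10% of spots by Ankrd1, 68.8% and 26.1% lay within 2 steps in the antibody sections, and 28.5% and 14.1% in the ICI-alone sections. In thinned spots, the Myh7 top 10% reached down to 3 and 6 UMIs in the antibody sections, and to 12 and 31 in the ICI-alone sections. The top 10% of spots by Myh6 and by Nppa shared 2.4% and 0.0% of their spots in the antibody sections and 0.0% and 0.656% in the ICI-alone sections. In the authors' deposited table of spatial autocorrelation, Myh6 had the highest Moran's I of all genes in 3 sections (0.911 in antibody replicate 1, 0.920 and 0.892 in the ICI-alone sections) and ranked second to Ankrd1 (0.811) in antibody replicate 2, at 0.793. Myh7 stood at 0.527 and 0.635 in the antibody sections and at 0.752 and 0.832 in the ICI-alone sections in the authors' deposited table, and Nppb near 0.

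Of 22 transcription factors and cofactors of the fetal programme, 2 rose with the antibody and 1 fell, with a median log2 fold change of 0.22 beside 0.08 over all genes. That share lies near the 11.2% of all genes called (2.81% higher, 8.38% lower), so the count says nothing particular of the list. They were Hdac9, a repressor of MEF2 (0.95, adjusted p = 0.0270, edgeR), Tbx5, a cardiac T-box factor (0.83, adjusted p = 0.0333), and Nfatc4, a target of calcineurin (-1.04, adjusted p = 0.0321). Thra, the thyroid hormone receptor α, stood at 0.62 (adjusted p = 0.0522). None of 9 genes for natriuretic peptide processing, receptors and breakdown was called; the clearance receptor Npr3 (0.57, adjusted p = 0.0834) and the signalling receptor Npr1 (0.51, adjusted p = 0.0857) came closest. None of 12 adult sarcomere genes and none of the 14 reference genes was called, each list with a median of 0.48. These lists share most of their genes and are not separate observations.

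Of 19 other fetal isoforms and hypertrophy genes, 7 fell and none rose (median -0.51), where 8.38% of all genes fell and 2.81% rose. Among those that fell were Tgfb2, a growth factor (27.6 ± 9.28 TMM CPM in the antibody sections against 113 ± 16.3 in the ICI-alone sections, SD, n = 2 each; -2.03, adjusted p = 0.0209), Actn1, the non-muscle α-actinin (-1.11, adjusted p = 0.0254), and Timp1, a metalloproteinase inhibitor (-2.003, adjusted p = 0.0284). Fibroblasts also express these genes, and 5 of 8 fibroblast markers fell with them, Col1a1 most (-3.65, adjusted p = 0.0217); their part in the list was not tested. Of the leukocyte panel 11 of 20 genes fell and none rose, of the macrophage panel 7 of 10 fell, and of the T cell panel 0 of 10 were called, with a median of 0.30. Of 20 Z-disc, titin and intercalated disc partners 3 fell and none rose (median -0.01), against 8.38% of all genes lower and 11.2% called. They were Ankrd2, the paralog of Ankrd1 (4.57 ± 0.84 TMM CPM in the antibody sections against 17.2 ± 7.02 in the ICI-alone sections; -1.91, adjusted p = 0.0225), Flnc, filamin C (-1.26, adjusted p = 0.0284), and Synpo2l (-1.06, adjusted p = 0.0484). Tcap, the titin cap, stood at 1.28 (adjusted p = 0.0688).

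Skeletal muscle, where Acta1 is also abundant, left little trace. Of 11 skeletal markers none was called, and all but Mybpc2 stayed at or below 3.19 CPM in each section, with the skeletal myosins Myh1, Myh2 and Myh4 between 0.196 and 0.554 CPM. Mybpc2 stood at 32.3 and 51.4 CPM in the antibody sections, against 78.3 and 60.9 CPM in the ICI-alone sections.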

How the data were processed

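The deposited matrices hold raw UMI counts per gene and spot, made by the authors with Space Ranger 2.1.0, per the file headers; mm10 and Seurat 5.1.0 are named per the submitters' processing notes. The deposited tables of Moran's I hold a score of spatial autocorrelation per gene with its adjusted p-value, from the authors. No source names the probes, so levels are compared within a gene only.

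The members and gene lists were chosen with earlier results of these data known. Counts were summed per section and spot class and tested with edgeR 4.0.16 (quasi-likelihood, TMM, section as a block for position, Benjamini-Hochberg adjustment; R 4.3.3), with DESeq2 1.42.0 and limma 3.58.1 as alternatives; gene levels are TMM or library-size CPM, as stated. Spots were thinned to 5000 UMIs to be classed, and 105 and 37 spots of the antibody sections and 11 and 4 of the ICI-alone sections were shallower and left unclassed. The leukocyte panel defined the spot classes and is not tested between them. Genes named from the lists are those called, in order of p, and otherwise those nearest to a call. A further gene that this rule names is not reported here. Depth was 33005923 to 73167202 UMIs per section. The fits were first tested on simulated data with known changes. They recovered 58% of 2-fold changes for the treatment outside the atrium, 18.2% for the leukocyte-rich interaction and 20% for the border interaction. Of 4-fold changes they recovered 100%, 89.9% and 93%. The batch number in the labels pairs an antibody with an ICI-alone section; their deviations from the group means correlated at 0.187 over 18798 genes.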

Additional observations from a re-analysis of the deposited data

Results flagged for a closer look

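The change of Myh7 from remote to border spots ran opposite ways in the 2 groups: higher in the border in both antibody sections and lower in both ICI-alone sections, a difference of 2.07 on the log2 scale that did not pass over all genes (adjusted p = 0.482, edgeR's quasi-likelihood test). Ankrd1 did the same on the TMM scale, with a difference of 1.21 (adjusted p = 0.489, edgeR). In the ICI-alone sections the direction of Ankrd1 depends on scaling. In replicate 1 it stood at 12240 TMM CPM in the border against 13881 in remote spots, and at 12496 against 12232 CPM by library size. Read against the reference genes, Ankrd1 was higher in the border in 4 of 4 sections. It stood at 319 and 205 per 1000 reference UMIs in the ICI-alone sections, against 150 and 155 in remote spots. That scale called 89.2% of all genes higher in the border. Per 1000 reference UMIs, Myh7 fell little in the border of the ICI-alone sections, at 15.5 and 42.0 against 16.5 and 50.2 in remote spots.

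Between edge and interior spots, Myh6 was lower at the edge in both antibody sections, at 18119 and 15094 TMM CPM against 26013 and 21055 inside, and higher in both ICI-alone sections, at 10098 and 5569 against 8312 and 2949. The difference between the groups was -1.1 on the log2 scale. Myh7b followed the same course, with a difference of -1.31. Neither difference was tested. The summed reference genes ran the same way by library size. They stood at 67137 and 61848 CPM in the edge spots of the antibody sections, against 82446 and 71960 CPM at 6 or more steps inside. In the ICI-alone sections they stood at 59204 and 38246 CPM at the edge, against 49358 and 27168 CPM inside.

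The atrial spots of antibody replicate 2, outside the comparisons, held members at levels unlike the remaining spots of that section. By library size, Nppa stood at 72506 CPM there, against 788 CPM in the other spots. Nppb stood at 2.15 CPM, from 5 UMIs, against 0.489 CPM. Myh6 stood at 22602 CPM against 17467 CPM, Ankrd1 at 3733 CPM against 9437 CPM, Acta1 at 45.6 CPM against 1349 CPM, and Myh7 at 5.59 CPM against 438 CPM. No other section held such spots.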

How the results depend on the processing

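Of the members' 663 log2 fold changes under the alternatives, 562 kept their direction and side of the threshold, 46 gained a call, 16 lost it and 39 changed sign. Of the 39, 4 were called in either fit, all against the cardiomyocyte reference genes, a scale that moved the median of all genes by 3.27 (leukocyte-rich) and 1.40 (border): Myh7 1.35, Acta1 1.36 and Ankrd1 1.96 in leukocyte-rich spots, and Acta1 1.16 in the border. The other 35 were called in neither fit. On the reference scale Myh7 turned to 0.91 in the border. In the border, Acta1 turned to 0.052 with library size alone, 0.045 with remote spots at 6 or more steps and 0.313 at the 20% threshold, Myh7 to 0.249 at the 20% threshold, and Ankrd1 to -0.644 and Nppb to -0.090 at the 5% threshold. In leukocyte-rich spots, Nppa turned to -1.109 at the 5% threshold and Ankrd1 to 0.012 with the T cell panel. In the treatment comparison of remote spots, Nppb turned to 0.012 at equal UMI totals and 0.071 with the T cell panel. In the leukocyte-rich interaction Myh7b turned to 0.105 at the 20% threshold and 1.12 with the T cell panel, and in the border interaction to -0.178 at the 5% threshold and -0.169 with the macrophage panel, and Acta1 turned there to -0.026 at the 5% threshold. With a section left out, sign-changing values ranged from -1.076 to 0.457 (Acta1) and -1.089 to 0.003 (Ankrd1) for the treatment outside the atrium, and from -1.304 to 0.156 (Acta1) and -0.871 to 0.498 (Nppb) in remote spots. They ranged from -0.293 to 0.768 (Nppa) in leukocyte-rich spots, -0.236 to 0.365 (Ankrd1) and -0.081 to 0.369 (Nppb) in the border, and -0.233 to 0.251 (Myh6) and -0.047 to 0.456 (Myh7b) at the edge. In the leukocyte-rich interaction they ranged from -0.013 to 1.986 (Myh6) and -1.116 to 0.933 (Myh7b), and in the border interaction from -0.233 to 0.601 (Myh7b), -0.256 to 1.069 (Acta1), -0.257 to 1.696 (Nppa) and -1.130 to 0.133 (Nppb). The reference scale called 1205, 349, 13432 and 13078 genes for the treatment outside the atrium, the treatment in remote spots, leukocyte-rich and border spots, with 4 members in remote spots and 6 in either position comparison, and 0 genes for the leukocyte-rich interaction. For the treatment outside the atrium (2104 genes, 3 members), DESeq2 called 3197 genes, limma 3695, the replicate block, which pairs sections by batch number, 3471 and a minimum of 10 CPM 634. That minimum left 1 member called, Nppa, and keeping the atrial spots also left 1, Myh7. In remote spots (0 genes, 0 members) DESeq2 called 469 genes and 1 member, the replicate block 1087 and 4, the 5% and 20% thresholds 7 and 22 genes (1 member at 20%), the T cell panel 12 genes, and the macrophage panel 147 genes and 2 members. At the edge (27 genes, 0 members) library size alone called 52 genes, DESeq2 270 with 2 members, no filter 42 and a deeper interior 13. For the leukocyte-rich interaction (3 genes, 0 members), DESeq2 called 64 genes, no filter 21 and the 5% threshold 28, each with 1 member, thinning to 2000 UMIs 6, and the 20% threshold and the macrophage panel 0. For the border interaction (0 genes, 0 members), DESeq2 called 39 genes, the T cell panel 285 and the 20% threshold 1, each with 1 member, and remote spots at 6 or more steps 1 gene. Under library size alone, 735 of 1711 treatment calls were higher (528 of 2104 with TMM), as were 6526 of 9571 leukocyte-rich and 6166 of 8824 border calls. Leaving out a section in turn, where the lone section left in an arm is assumed to vary like the other group, gave 177 to 4844 genes and 0 to 4 members for the treatment outside the atrium, 0 to 1158 and 0 to 3 in remote spots, 0 to 9 genes at the edge, 1 to 980 genes and 0 to 2 members for the leukocyte-rich interaction, and 0 to 870 and 0 to 2 for the border interaction. The cause of these shifts was not tested. Nppb, with 15 to 41 UMIs a section, is limited by depth.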
